A study of Mus musculus with 16 samples.

Results

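The RNA-seq libraries of progenitors from organoids treated with N1-acetylspermidine (N1-AcSpd) were compared with those of untreated hair follicle stem cells (HFSCs), to find which genes still separated the progenitors from HFSCs after treatment. These are 4 of the 16 libraries of the series, 2 per group, and were chosen by their labels. The groups differ both in cell type and in treatment, and the parts of these in a difference cannot be told apart in this comparison. Progenitors were sorted as α6+CD34− cells and HFSCs as α6+CD34+ cells. Compared were 12242 of the 22579 genes of the series, with 1 transcript kept per gene, namely those that had a mean of at least 10 counts over the 8 RNA-seq libraries. Epidermal and hair follicle cells of 2 C57BL/6J donor mice were grown for 2 weeks as 3D–3C organoids. In these organoids HFSCs and their direct progeny are maintained together in a gel with defined growth factors. N1-AcSpd was added for the last 72 h or left out. The labels give replicate 1 of every group 1 mouse and replicate 2 the other, so that by them 1 treated progenitor library and 1 HFSC library came from each mouse, but from separate dishes. Ribo-seq libraries of ribosome-protected fragments (footprints) came from the same lysates, and untreated progenitors and treated HFSCs complete the series. With 2 libraries against 2, an exact permutation test of a single gene cannot go below p = 0.333, so the p-values given here come from edgeR's quasi-likelihood test across all genes with Benjamini-Hochberg adjustment. A gene is called, or said to have risen or fallen, at an adjusted p of at most 0.05. Fold changes are given on the log2 scale as treated progenitors over untreated HFSCs, and pairs of levels stand in the order of replicates 1 and 2.

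The epidermis renews itself from a basal layer that is anchored to the basement membrane by α6β4 integrin and expresses keratins 5 and 14. Cells that leave this layer switch to keratins 1 and 10 and then build the cornified envelope, a shell of cross-linked proteins such as involucrin, loricrin and small proline-rich proteins, around which lipids form the water barrier. HFSCs of the bulge lie outside this programme, and in the mouse they are known by CD34 and keratin 15 and by transcription factors such as SOX9, LHX2 and NFATC1. N1-AcSpd is the acetylated form of spermidine made by spermidine/spermine acetyltransferase, on the way by which cells return spermidine to putrescine or export it.

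The regions just before the start sites of 4 genes are shown because their genes lie at opposite ends of the comparison and differ in the motifs they hold. They cover the 250 bases before the start of involucrin (Ivl), the small proline-rich protein gene Sprr1b and the late cornified envelope gene Lce3c, all higher in treated progenitors, and of Cd34, which was lower. They are reference sequences from RefSeq (GRCm38.p6, whose chromosomes are those of the GRCm38.p5 build of the counts), written 5′ to 3′ on the strand of the gene. Capitals mark each match to the AP-1 consensus TGANTCA or to the TATA box TATAAA on either strand, 2 motifs that cannot overlap each other.
Ivl, chr3:92573736-92573985, minus strand: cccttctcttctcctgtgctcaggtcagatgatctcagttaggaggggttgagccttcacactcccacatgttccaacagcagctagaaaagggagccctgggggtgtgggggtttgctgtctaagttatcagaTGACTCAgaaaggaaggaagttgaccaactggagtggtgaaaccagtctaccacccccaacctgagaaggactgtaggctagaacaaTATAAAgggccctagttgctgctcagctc
Sprr1b, chr3:92438780-92439029, minus strand: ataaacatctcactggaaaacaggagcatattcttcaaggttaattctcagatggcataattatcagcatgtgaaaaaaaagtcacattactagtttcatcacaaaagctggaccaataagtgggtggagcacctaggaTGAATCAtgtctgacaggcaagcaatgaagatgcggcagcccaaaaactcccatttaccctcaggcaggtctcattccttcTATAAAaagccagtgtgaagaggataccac
Lce3c, chr3:92944236-92944485, plus strand: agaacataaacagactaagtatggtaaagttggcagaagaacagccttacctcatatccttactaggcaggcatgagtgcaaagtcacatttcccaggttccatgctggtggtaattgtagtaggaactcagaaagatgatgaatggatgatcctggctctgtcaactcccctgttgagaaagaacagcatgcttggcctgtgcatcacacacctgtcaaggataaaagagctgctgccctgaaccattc
Cd34, chr1:194938571-194938820, plus strand: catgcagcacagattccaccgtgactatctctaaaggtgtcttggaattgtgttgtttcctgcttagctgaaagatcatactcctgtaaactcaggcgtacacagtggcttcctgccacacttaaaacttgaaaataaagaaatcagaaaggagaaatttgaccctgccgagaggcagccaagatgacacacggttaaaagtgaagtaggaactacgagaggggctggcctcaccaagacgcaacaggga
In Ivl the AP-1 match began 116 bases and the TATA box 29 bases before the start, and in Sprr1b they began 111 and 30 bases before it, whereas Lce3c and Cd34 held neither string of letters in this window. The windows of Klk7 and Alox12b, both higher, and of Ltbp2, which was lower, were also searched. They held neither motif and are not shown. Among the 32851 such windows of RefSeq genes, 6.75% held an AP-1 match and 12.4% a TATA box. Of the 509 windows matched to 422 of the 584 genes that rose, 11% held an AP-1 match, against 4.66% of the 536 windows matched to 393 of the 523 genes that fell and 4.59% of the windows of all genes tested. For the TATA box the shares of these sets were 11.4%, 7.28% and 6.36%. In 37 windows of 35 cornified envelope genes, described below and in part counted among the genes that rose, the shares were 45.9% for AP-1 and 43.2% for the TATA box. Many of these windows belong to duplicated genes with related sequence, so that they are not independent, and a match is a description of the letters only.

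The genes by which the cells are recognised stood as labelled. Keratin 15 (Krt15), an HFSC keratin, had 104 and 97.0 CPM, read counts scaled to library size, in treated progenitors and 682 and 765 CPM in HFSCs. Cd34, the surface protein on which the cells were sorted, had 2.40 and 5.37 against 67.4 and 87.0 CPM. Ivl, a precursor of the cornified envelope, had 56.4 and 56.1 against 15.6 and 15.03 CPM. For none of the 3 genes did the groups overlap. The log2 fold changes of treated progenitors over HFSCs were −2.85 for Krt15 (SE 0.122, adjusted p = 1.12e-04 by edgeR), −4.32 for Cd34 (SE 0.353, adjusted p = 0.00101) and 1.88 for Ivl (SE 0.0980, adjusted p = 2.84e-04). Cd34 was a sorting marker, so its difference is a check of the sort. Itga6, the α6 integrin that both sorted populations carry, had 985 and 935 against 802 and 691 CPM and did not pass (0.36, SE 0.106, adjusted p = 0.0716), although it passed with DESeq2 (adjusted p = 0.0263) and with the mouse as a block within the 4 libraries (adjusted p = 0.0201). These are bulk libraries, in which fewer cells of a kind and less RNA per cell cannot be told apart.

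**Figure D1:**
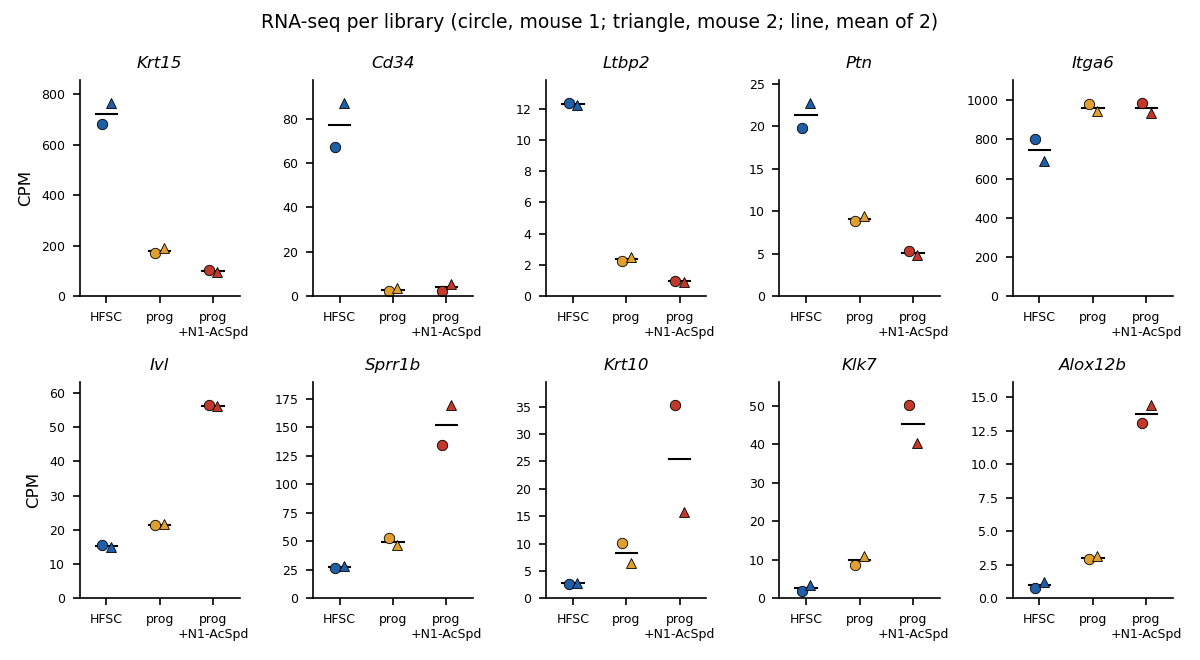
RNA-seq levels in CPM (vertical axes from 0) of 10 genes in untreated HFSCs, untreated progenitors (prog) and progenitors treated with N1-AcSpd. Each point is 1 library, a circle for mouse 1 and a triangle for mouse 2, and the line is the mean of 2; Krt15 lies between 682 and 765 CPM in HFSCs and at 104 CPM or less in treated progenitors, and Ivl rises from about 15.6 CPM or less to over 56.0 CPM.

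Across all genes 1107 of the 12242 tested (9.04%) differed between treated progenitors and untreated HFSCs, 584 of them higher (4.77%) and 523 lower (4.27%) in treated progenitors. The higher genes had a median difference of 1.86-fold and the lower genes one of 2.03-fold, but the tails were unequal: 80 genes rose and 34 fell by at least 3 on the log2 scale. All 1107 differed in the same direction in both mice and had no overlap between groups. The same lack of overlap was seen in 26.5% of all genes on the higher side and in 27.8% on the lower side. The median log2 fold change of all genes was −0.02. The last gene inside the threshold was Hspd1 (adjusted p = 0.0499) and the next outside it was Apip (−0.79, adjusted p = 0.0506).
The count of calls moved with the fit. DESeq2 called 1513 genes, and edgeR without the other 4 libraries called 668. The mouse was added as a block in 3 fits, which called 866 genes over all 8 libraries, 2228 within the 4 libraries compared and 2900 over all 8 with the numbers of the treated HFSC libraries exchanged. The last was fitted because these libraries deviated against the same-numbered libraries of the other groups, and whether their numbers are right was not tested. With 1 library left out, 349 genes were called without treated progenitor replicate 1, 430 without its replicate 2, 596 without HFSC replicate 1 and 281 without HFSC replicate 2. None of the genes called with all libraries that could be tested changed its direction. Their lack of overlap between groups largely fixed this in advance.

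**Figure D2:**
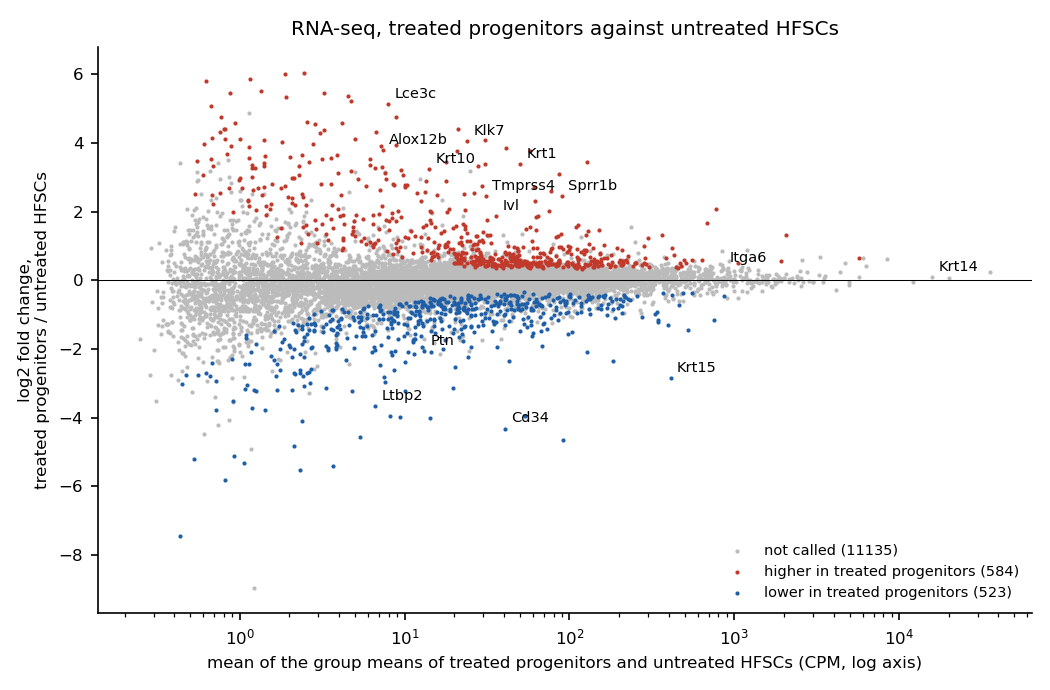
Each point is 1 of 12242 genes, with its mean CPM over both groups on the horizontal log axis and its log2 fold change of treated progenitors over untreated HFSCs on the vertical axis. Red points are the 584 genes that rose, with Lce3c, Klk7, Alox12b, Krt1, Krt10, Tmprss4, Sprr1b and Ivl named, and blue points the 523 that fell, with Krt15, Cd34, Ltbp2 and Ptn named; Itga6 and Krt14 are named among the grey genes that were not called.

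Of the 12 genes with the smallest p-values on the higher side, most belong to the outer layers of the epidermis. Beside Ivl they included the serine protease Tmprss4, with 58.7 and 46.4 against 9.64 and 9.49 CPM. Sprr1b had 134 and 169 against 26.6 and 28.5 CPM. The lipoxygenase Alox12b, which oxidises barrier ceramides, had 13.1 and 14.4 against 0.777 and 1.21 CPM, and Lce3c had 14.4 and 16.4 against 0.280 and 0.607 CPM. The others were the tubulin Tuba8, Sprr2h, the actin-binding protein Ablim1, the kallikreins Klk8 and Klk7, the desmosomal cadherin Dsg1b and Lypd5. Their log2 fold changes ran from 1.55 (Tuba8, SE 0.108) to 5.14 (Lce3c, SE 0.400), and the groups were apart in every one.
On the lower side the 12 genes included Krt15 and Cd34. Ltbp2, a matrix protein related to the TGFβ-binding proteins, had 0.996 and 0.919 against 12.4 and 12.2 CPM. The surface protein Susd2 had 12.6 and 15.2 against 61.6 and 81.8 CPM, and the proton pump subunit Atp12a 0.860 and 1.35 against 14.4 and 21.0 CPM. The others were the heparin-binding growth factor Ptn, Sertad4, the collagen Col12a1, the copper oxidase ceruloplasmin (Cp), the thioredoxin-binding protein Txnip, the kinesin Kif5c and the transcription factor Atoh8. Their log2 fold changes ran from −1.17 (Col12a1, SE 0.0959) to −4.32 (Cd34). All 24 genes kept their call under each of the 13 alternatives tried for the RNA-seq comparison, the libraries left out included. Of the called genes 1, Fam180a, had no count in either treated progenitor library against 14 and 34 counts in HFSCs. At a floor of 3 counts per library it was at least 6.38-fold lower. It was chosen for this after its values were seen.

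HFSC genes were lower in treated progenitors as a group. Of 10 HFSC identity markers all 10 were lower and 5 fell, Krt15, Nfatc1, Crip1, Sox9 and Fzd2, with a median log2 fold change of −1.23. The study displayed these markers on the same samples, so their direction is not independent evidence. Nfatc1, a transcription factor of quiescent bulge cells, had 46.2 and 39.1 against 88.4 and 91.4 CPM (−1.07, SE 0.108, adjusted p = 0.00170). Crip1, a small LIM protein, had 3.67 and 4.65 against 13.6 and 23.7 CPM (−2.16, SE 0.338, adjusted p = 0.00921). Sox9, which HFSCs need for their identity, had 102 and 137 against 230.2 and 285 CPM (−1.11, SE 0.222, adjusted p = 0.0228). The Wnt receptor Fzd2 had 26.0 and 35.7 against 55.6 and 102 CPM (−1.36, adjusted p = 0.0333). In every one of these genes both treated progenitor libraries lay under both HFSC libraries. The 5 calls became 2 without treated progenitor replicate 1, where Crip1 (adjusted p = 0.0646), Sox9 (0.119) and Fzd2 (0.150) did not pass. They became 3 without HFSC replicate 2, where Sox9 (0.131) and Fzd2 (0.160) did not pass, and Fzd2 was also lost without treated progenitor replicate 2 (0.0738).

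Among 20 transcription factors of the bulge and hair germ 18 were lower, 11 fell and 1 rose, Klf5 (0.43, adjusted p = 0.0394), with a median of −0.71 against −0.02 for all genes. Gli2, which carries the Hedgehog signal, had 14.5 and 13.4 against 33.3 and 39.3 CPM (−1.37, SE 0.161, adjusted p = 0.00309). Foxp1, a brake on HFSC cycling, had 56.8 and 43.7 against 78.6 and 83.9 CPM (−0.69, SE 0.130, adjusted p = 0.0184). Beside them Tcf7l1 and Tbx1 stood at −1.18 and −1.41, and Nfib, Nfix and Runx1 between −0.60 and −0.72. Lef1, the Wnt effector of the hair germ, had at most 0.484 CPM in treated progenitors against 3.30 and 5.77 CPM (−4.10, SE 0.720, adjusted p = 0.0145). Tcf7l2, a related factor, had 14.04 and 15.1 against 23.4 and 32.2 CPM (−0.93, adjusted p = 0.0259). The levels of Lef1 and Tcf7l2 did not overlap between groups. The list had 12 calls in all, 4 without treated progenitor replicate 1, 4 without its replicate 2 and 2 without HFSC replicate 2. Without the last of these Lef1 (adjusted p = 0.0806), Foxp1 (0.0980) and Tcf7l2 (0.144) were no longer called. Tcf7l2 also lost its call without either treated progenitor library (0.122 and 0.0899), and Foxp1 without replicate 2 of these (0.0672).

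Of 16 surface and matrix genes of HFSCs 14 were lower, 8 fell and none rose, with a median of −1.44. They are Cd34, Ltbp2 and Susd2, named above, and Postn, Npnt, Lgr6, Lgr5 and Cd200. Cd34 was a sorting marker. This list and that of the transcription factors were chosen with earlier results of these data known, so their counts are not independent evidence. Periostin (Postn), a matrix protein that binds integrins, had 53.3 and 66.7 against 242 and 370.1 CPM (−2.35, SE 0.230, adjusted p = 0.00170). Nephronectin (Npnt), which bulge cells lay down at the attachment site of the arrector pili muscle, had 5.98 and 4.74 against 20.4 and 15.1 CPM (−1.72, SE 0.307, adjusted p = 0.0153). Lgr6, an R-spondin receptor of upper follicle stem cells, had at most 0.136 CPM against 2.46 and 6.68 CPM (−5.53, SE 1.05, adjusted p = 0.0192). Lgr5, the R-spondin receptor of the lower bulge and hair germ, stood at −4.82 and the surface protein Cd200 at −3.15 (adjusted p = 0.0319 and 0.0349). Calls numbered 5 without treated progenitor replicate 1, 4 without its replicate 2 and 5 without HFSC replicate 2. Npnt and Lgr6 lost theirs without either treated progenitor library (adjusted p from 0.0567 to 0.0991). Npnt was also lost without HFSC replicate 1 (0.0584) and Lgr6 without HFSC replicate 2 (0.0865).

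Of 21 hemidesmosome and basement membrane genes 15 were lower, but 2 fell and none rose, and the median was −0.25. Col7a1, the collagen of the fibrils that anchor the basement membrane, had 157 and 149 against 262 and 244 CPM (−0.73, SE 0.105, adjusted p = 0.00670). Perlecan (Hspg2), a heparan sulfate proteoglycan of basement membranes, had 116 and 106 against 145 and 151 CPM (−0.42, SE 0.104, adjusted p = 0.0442). The groups did not overlap in either gene. Hspg2 lost its call without any 1 of the 4 libraries (adjusted p from 0.0953 to 0.191) and with the mouse as a block over all 8 libraries (0.0605), so that Col7a1 was the 1 call left in each of these. In the other 2 block fits Hspg2 was called and the list had 9 and 10 calls.

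Suprabasal keratins rose, whereas the basal keratin 5 did not pass. Keratin 5 (Krt5), a partner of keratin 14 in basal cells, had 20200 and 20690 CPM in treated progenitors and 19070 and 19760 CPM in HFSCs (0.07, SE 0.103, adjusted p = 0.689). Krt15 was the 1 call among 3 basal keratins. All 4 suprabasal keratins tested rose, with a median of 3.31. Keratin 1 (Krt1) had 119 and 63.5 against 8.24 and 9.26 CPM (3.38, SE 0.397, adjusted p = 0.00309). Its partner keratin 10 (Krt10) had 35.2 and 15.8 against 2.64 and 2.81 CPM (3.23, SE 0.506, adjusted p = 0.00923). Krt78 had 2.72 and 2.52 against 0.155 and 0.266 CPM, and Krt80 37.2 and 31.5 against 8.61 and 13.3 CPM. Every treated library was above every HFSC library, although Krt1 and Krt10 were lower in mouse 2 than in mouse 1 of the treated pair. Krt10 was not called without HFSC replicate 1 (adjusted p = 0.0516) or replicate 2 (0.0712). The other 5 suprabasal keratins listed had a mean under 10 counts and were not tested. Krt78, with 5 and 7 counts in HFSCs, entered the test only through the other groups. The count of 4 thus describes the genes that entered.
Of 5 keratins of wounded or stressed epidermis 3 rose and 1 fell. Krt6b, induced by wounding, had 1249 and 846 against 354 and 298 CPM (1.68, SE 0.266, adjusted p = 0.00942). Krt16 had 3480 and 2424 against 1373 and 1002 CPM (1.31, adjusted p = 0.0362), and Krt6a 7241 and 6561 against 3955 and 4924 CPM (0.64, adjusted p = 0.0230). Krt75, a keratin of the follicle's companion layer, had 3.31 and 2.95 against 6.37 and 12.6 CPM (−1.59, adjusted p = 0.0337). Krt6a and Krt6b share much of their sequence and how multiply matching reads were counted is not given in the sources used here, so their split is uncertain. The 4 calls became 2 with the mouse as a block over all 8 libraries, where Krt16 (adjusted p = 0.0599) and Krt75 (0.0606) did not pass, and 5 of 5 in each of the other 2 block fits. They became 1 without treated progenitor replicate 1, 2 without HFSC replicate 1 and 1 without HFSC replicate 2.

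Of all gene lists the cornified envelope precursors held the most genes that rose. All 40 members tested were higher in treated progenitors, 34 rose and none fell, with a median of 3.08. Both treated libraries were above both HFSC libraries in each of the 40, against 26.5% of all genes. The other 6 of the 46 genes listed, filaggrin (Flg) among them, had a mean under 10 counts, and a gene nearly silent in HFSCs entered the test only through the other groups, so these counts describe the genes that entered. Sprr1a, a cross-linked envelope protein, had 223 and 242 against 14.1 and 28.9 CPM (3.44, SE 0.298, adjusted p = 0.00122). Cornifelin (Cnfn), an envelope protein of the same layers, had 57.5 and 58.3 against 1.59 and 5.31 CPM (4.09, SE 0.443, adjusted p = 0.00231). The calcium-binding protein Calm4 had 176 and 132 against 14.8 and 21.5 CPM (3.09, SE 0.304, adjusted p = 0.00170). The calls numbered 20 without treated progenitor replicate 1 and 22 without HFSC replicate 2. The median stayed between 2.77 and 3.52 over the 13 alternatives.
Most of these genes lie in the epidermal differentiation complex. It was taken as chromosome 3, 92080271 to 93449077 (GRCm38, GENCODE annotation), from loricrin to trichohyalin. These ends were set by the listed cornified envelope genes, so the counts of the stretch largely repeat those of the list. On the same chromosome but outside these ends lie S100a1 (−1.32, called), S100a6 (−0.16) and S100a8 (1.60, not called). Of the 55 protein-coding genes of the stretch 41 were tested, all 41 were higher and 33 rose, with a median of 3.91. Of the 8 that did not pass, loricrin (Lor), the main envelope protein of the epidermis, stood at a log2 fold change of 1.54 (adjusted p = 0.0808). Lce6a stood at 1.46, Sprr2k at 0.89, Sprr2a1 at 0.31 and Sprr2a2 at 0.14, and Prr9, Gm9774 and trichohyalin (Tchh) lay between 0.52 and 0.56. Repetin (Rptn) and Lce3e, at 6.05 and 6.02, had the highest fold changes of the stretch and few counts in HFSCs. The Sprr2 and Lce genes are near copies of each other, so the values of single members are uncertain for the reason given above.

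**Figure D3:**
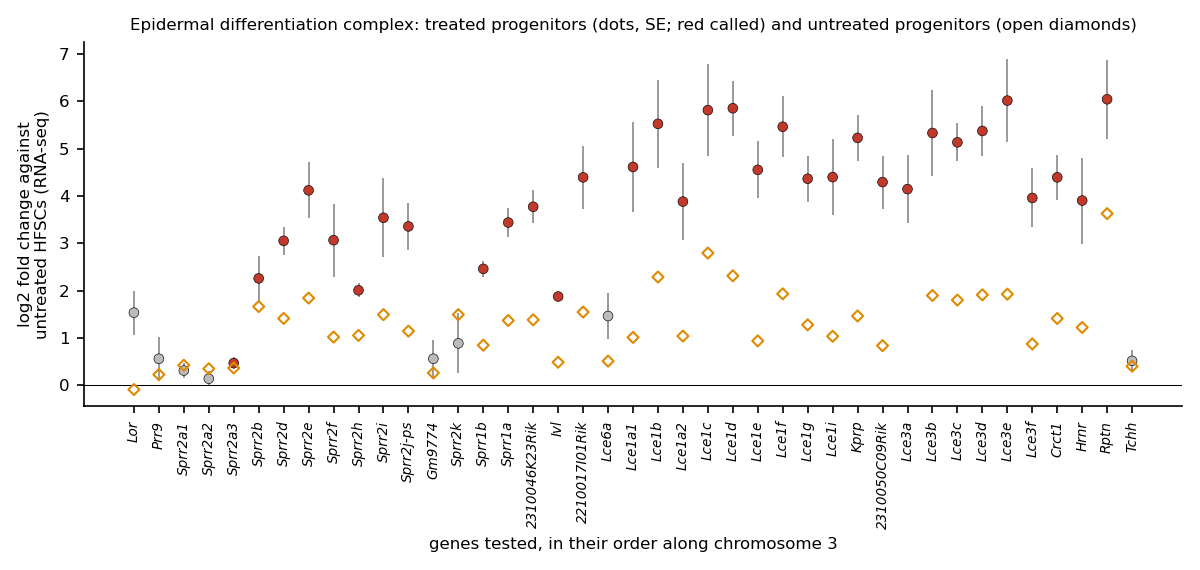
Log2 fold changes (vertical axis) of the 41 tested genes of the epidermal differentiation complex, in their order along chromosome 3; dots are treated progenitors against untreated HFSCs with their SE (red: called, grey: not called). Open diamonds are untreated progenitors against the same HFSCs, left out for Lce3a, which had no count in untreated progenitors. The 33 red dots lie between 0.47 and 6.05.

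Most of the enzymes that finish the barrier rose as well. Of 25 barrier lipid and cross-linking enzymes 24 were higher, 15 rose and 1 fell, the lipoxygenase Alox12e (−2.71, adjusted p = 0.00899), with a median of 1.32. Beside Alox12b those that rose included Abca12, which loads lipid into lamellar granules, with 167 and 193 against 73.2 and 70.8 CPM (1.32, SE 0.122, adjusted p = 0.00132). Elovl4, which makes very long fatty acids, had 56.9 and 44.9 against 3.85 and 6.34 CPM (3.33, SE 0.326, adjusted p = 0.00170). Pnpla1, which makes acylceramides, had 15.3 and 11.5 against 0.715 and 1.06 CPM (3.92, SE 0.389, adjusted p = 0.00170). Tgm1, the transglutaminase that cross-links the envelope, had 63.0 and 39.7 against 8.74 and 6.37 CPM (2.76, SE 0.359, adjusted p = 0.00454). The groups did not overlap in Abca12, Elovl4, Pnpla1 or Tgm1. The list had 16 calls, and 10 without HFSC replicate 2.
All 18 epidermal proteases and protease inhibitors tested were higher and 12 rose, with a median of 2.09. The kallikrein-related genes of chromosome 7 encode serine proteases, of which some cut corneodesmosomes, and all 7 that were tested rose. Klk8 had 14.8 and 15.2 against 2.39 and 1.86 CPM, and Klk7 had 50.04 and 40.3 against 1.96 and 3.57 CPM. Klk5 had 14.1 and 11.4 against 0.373 and 0.911 CPM (4.33, SE 0.375, adjusted p = 0.00122). Klk6 stood at 4.75 (SE 0.664, adjusted p = 0.00611) and Klk10 at 1.72 (SE 0.221, adjusted p = 0.00446). The other 19 of 26 kallikrein genes had a mean under 10 counts, so the count of 7 describes the genes that entered the test. Without treated progenitor replicate 1 or HFSC replicate 1 the list had 7 calls in place of 12.

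Cell junction genes rose in part. Among 14 desmosome genes 13 were higher and 6 rose, and the highest changes were those of proteins of upper layers. Corneodesmosin (Cdsn) had 105 and 109.8 against 4.88 and 11.1 CPM (3.76, SE 0.321, adjusted p = 0.00122), and the cadherin Dsc1 had 65.3 and 46.5 against 5.01 and 5.77 CPM (3.38, SE 0.290, adjusted p = 0.00122). Dsg1b and its near copy Dsg1a rose by 2.62 and 2.49, with an uncertain split. Plakoglobin (Jup), a plaque protein of all layers, stood at 0.52 (adjusted p = 0.0261) and was not called without treated progenitor replicate 1 or either HFSC library (adjusted p from 0.0968 to 0.106). Dsc2, at 1.10 (adjusted p = 0.0100), was not called without treated progenitor replicate 2 (0.0548) or HFSC replicate 1 (0.0503). The list median was 0.41. Of 10 tight junction genes 2 rose. Claudin 4 (Cldn4) had 23.6 and 17.0 against 3.45 and 3.49 CPM (2.55, SE 0.235, adjusted p = 0.00132). Claudin 1 (Cldn1), a main barrier claudin, stood at 0.68 (adjusted p = 0.0386) and lost its call without any 1 of the 4 libraries and with the mouse as a block over all 8 libraries (adjusted p = 0.0599), but was called in the other 2 block fits.
Of 22 transcription factors of epidermal differentiation 17 were higher and 4 rose, with a median of 0.35. Zfp750, which acts in terminal differentiation, had 54.3 and 35.7 against 8.39 and 7.06 CPM (2.54, SE 0.369, adjusted p = 0.00670). Grhl3, a factor of barrier formation, had 47.5 and 30.9 against 8.27 and 5.39 CPM (2.52, SE 0.382, adjusted p = 0.00812). Klf4, which is needed for the barrier, had 278 and 307 against 214 and 200.2 CPM (0.50, SE 0.100, adjusted p = 0.0234). Without HFSC replicate 2 the list had 1 call, with Zfp750 (adjusted p = 0.0627), Grhl3 (0.0667) and Klf4 (0.131) outside the threshold. Klf4 also lost its call without any other 1 of the 4 libraries (0.0582 to 0.118). Of 6 lineage markers all were higher and 2 rose, Lypd3 and Krt6a. The study displayed these markers on the same samples too, so their direction is not independent evidence. Lypd3, a surface protein of suprabasal cells, had 184 and 143 against 55.6 and 56.8 CPM (1.54, SE 0.192, adjusted p = 0.00399). Krt6a lost its call without treated progenitor replicate 1 (0.0809) or HFSC replicate 1 (0.0901).

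**Figure D4:**
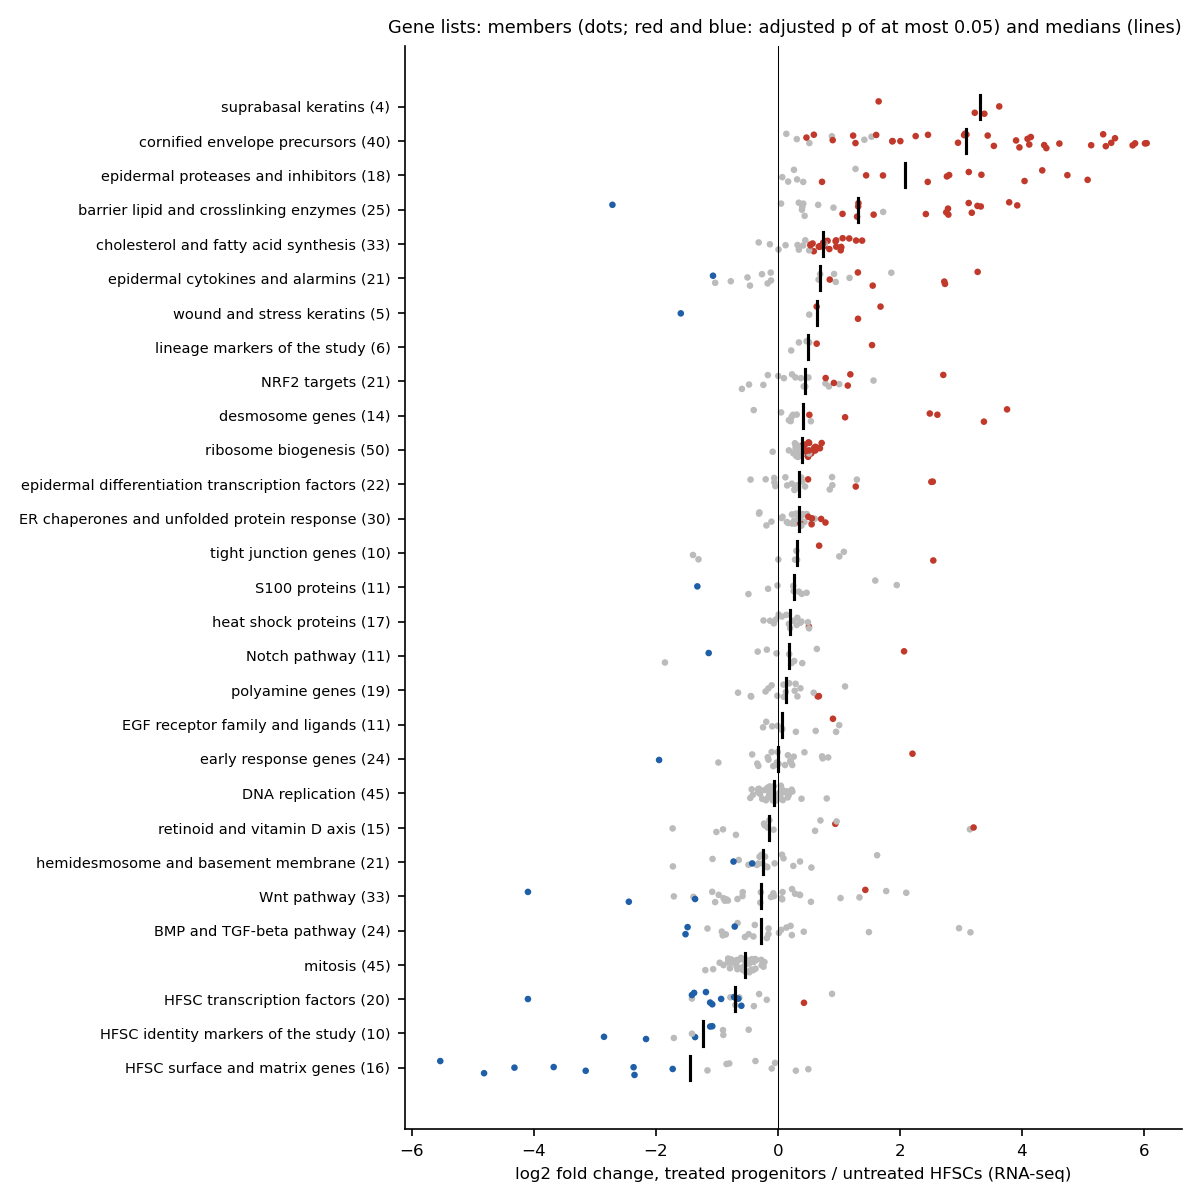
Each row is a gene list (number of genes tested in brackets), each dot 1 gene at its log2 fold change of treated progenitors over untreated HFSCs (horizontal axis), red or blue where called, and the black line the list's median. Medians run from −1.44 for HFSC surface and matrix genes to 3.31 for suprabasal keratins.

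The signalling lists had from 1 to 4 calls each, to be read against the 9.04% of all genes called. Among 11 Notch genes 1 rose and 1 fell. The receptor Notch3 had 35.2 and 24.6 against 6.93 and 7.32 CPM (2.07, SE 0.238, adjusted p = 0.00287), and Lfng, which modifies Notch receptors, had 29.5 and 36.2 against 59.8 and 84.6 CPM (−1.13, adjusted p = 0.0200). Of 33 Wnt genes 20 were lower. The receptor Fzd10 rose (1.43, SE 0.182, adjusted p = 0.00425), and Lef1, Fzd2 and the secreted antagonist Wif1 (−2.44, adjusted p = 0.0393) fell. Of 24 BMP and TGFβ genes 15 were lower and 3 fell. The TGFβ-induced matrix protein Tgfbi had 369 and 335 against 553 and 596 CPM (−0.71, SE 0.121, adjusted p = 0.0130). The BMP antagonist Nog stood at −1.48 (adjusted p = 0.0412) and Id4, an inhibitor of DNA binding, at −1.51 (adjusted p = 0.0465). Notch3 and Fzd10 were called without any 1 library. Lfng, Wif1, Nog and Id4 each lost their calls without either treated progenitor library and without HFSC replicate 2 (adjusted p from 0.0565 to 0.233), Nog also without HFSC replicate 1 (0.0780). Tgfbi lost its call without treated progenitor replicate 2 (0.0638) or HFSC replicate 2 (0.0862).
The EGF receptor ligand Epgn was the 1 call among 11 genes of that family, with 84.5 and 116 against 62.4 and 44.5 CPM (0.90, adjusted p = 0.0272). It was not called without treated progenitor replicate 2 (0.133) or HFSC replicate 2 (0.138). The receptor Egfr had 158 and 192 against 179 and 221 CPM. Of 11 S100 genes S100a1 fell (−1.32, adjusted p = 0.0482, 0.184 without treated progenitor replicate 1 and 0.240 without HFSC replicate 2), and S100a6 stood at −0.16. Of 24 early response genes 12 lay on each side. The transcription factor Egr3 rose (2.21, adjusted p = 0.0205) and the YAP target Ctgf fell (−1.95, adjusted p = 0.0464). Both calls were lost without either treated progenitor library (adjusted p from 0.0569 to 0.191), and that of Ctgf also without HFSC replicate 2 (0.227) and with the mouse as a block over all 8 libraries (0.0616), though not in the other 2 block fits. Of 15 genes of the retinoid and vitamin D axis 2 rose. The retinoic acid carrier Crabp2 had 20.6 and 13.7 against 1.77 and 1.94 CPM (3.21, SE 0.362, adjusted p = 0.00275). The retinoic acid hydroxylase Cyp26b1 stood at 0.94 (adjusted p = 0.0338) and lost its call without treated progenitor replicate 1 (0.155) or either HFSC library (0.118 and 0.132).
Of 21 epidermal cytokines and alarmins 6 rose and 1 fell. Thymic stromal lymphopoietin (Tslp), an epithelial alarmin, had 515 and 523 against 219.7 and 198 CPM (1.31, SE 0.106, adjusted p = 0.00101). Il1f5, an antagonist of the IL-36 receptor, had 14.6 and 9.34 against 1.21 and 1.25 CPM (3.27, SE 0.424, adjusted p = 0.00450). The nuclear alarmin Il33 had 23.0 and 11.9 against 2.89 and 2.35 CPM (2.73, SE 0.391, adjusted p = 0.00670), and the defensin Defb1 had 63.5 and 61.6 against 30.3 and 39.2 CPM (0.85, SE 0.129, adjusted p = 0.00812). Il18 and Il1f8 also rose (1.55 and 2.74). Lipocalin 2 (Lcn2), a protein that binds the iron carriers of bacteria, fell, with 29.6 and 29.5 against 52.3 and 71.3 CPM (−1.06, adjusted p = 0.0127). Calls numbered 4 without treated progenitor replicate 1 and 3 without HFSC replicate 2, where Il33 (0.0591) and Lcn2 (0.0753) were not called. Lcn2 also lost its call without either treated progenitor library (0.0655 and 0.0611).

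Several lists of growth and metabolism shifted by less than 1 on the log2 scale in most of their members. In ribosome biogenesis 49 of 50 genes were higher and 23 rose, with a median of 0.40. Both treated libraries lay above both HFSC libraries in 49 of the genes, against 26.5% of all genes. Nop56, a core protein of the particles that methylate rRNA, had 348 and 351 against 217 and 227 CPM (0.66, SE 0.0939, adjusted p = 0.00670). Nolc1, a nucleolar chaperone of these particles, had 172 and 168 against 112 and 111 CPM (0.61, SE 0.0883, adjusted p = 0.00670). Bysl, needed for the small subunit, had 79.9 and 75.9 against 44.8 and 51.9 CPM (0.69, SE 0.108, adjusted p = 0.00938). The 23 calls fell to 7 without treated progenitor replicate 1, 3 without its replicate 2, 11 without HFSC replicate 1 and 3 without HFSC replicate 2, and to 7 without the other 4 libraries, while the median stayed between 0.38 and 0.45.
In cholesterol and fatty acid synthesis 31 of 33 genes were higher and 23 rose, with a median of 0.74. Insig1, a sterol sensor of the ER, had 43.5 and 37.9 against 18.2 and 18.0 CPM (1.17, SE 0.117, adjusted p = 0.00170). Fatty acid synthase (Fasn) had 555 and 520.1 against 334 and 312 CPM (0.74, SE 0.0977, adjusted p = 0.00490). The desaturase Scd2 and the sterol synthesis enzymes Lss and Sc5d rose by 0.95, 0.76 and 0.78. These 5 genes kept their calls without any 1 library, but the list's calls numbered 10 without treated progenitor replicate 1, 15 without replicate 2 and 7 without HFSC replicate 2.
Of 21 NRF2 targets 17 were higher and 5 rose. Heme oxygenase (Hmox1) had 84.3 and 79.1 against 36.6 and 37.3 CPM (1.15, SE 0.102, adjusted p = 0.00131). The glutathione transferase Gsta4 had 127 and 83.5 against 15.02 and 17.2 CPM (2.71, SE 0.280, adjusted p = 0.00197). The NADPH-producing enzymes Me1 and Pgd and the growth inhibitor Osgin1 stood at 0.92, 0.78 and 1.19. These 3 lost their calls without treated progenitor replicate 1 or either HFSC library (adjusted p from 0.0505 to 0.159), which left 2 calls each time, and 7 genes were called without treated progenitor replicate 2. Among 30 ER chaperones and unfolded protein response genes 26 were higher and 6 rose. Sdf2l1, a part of the ER chaperone complex, had 45.7 and 43.5 against 26.6 and 25.3 CPM (0.78, SE 0.112, adjusted p = 0.00670), and the chaperone Hyou1 had 298 and 265 against 180.0 and 164 CPM (0.71, SE 0.111, adjusted p = 0.00923). DESeq2 called 14 of this list. With edgeR 1 was called without treated progenitor replicate 1, 2 without its replicate 2 and none without HFSC replicate 2, where Sdf2l1 (0.0563) and Hyou1 (0.0667) did not pass. Of 17 heat shock genes 1 rose, the mitochondrial chaperonin Hspd1 (0.51, adjusted p = 0.0499), and its call was lost without any 1 of the 4 libraries (adjusted p from 0.0576 to 0.225).
Of 19 polyamine genes 12 were higher and 2 rose, with a median of 0.13. Spermidine synthase (Srm) had 206 and 193 against 122 and 131 CPM (0.65, SE 0.104, adjusted p = 0.00958). Mtap, which recycles the methylthioadenosine left by polyamine synthesis, had 82.1 and 66.4 against 45.6 and 47.6 CPM (0.67, SE 0.119, adjusted p = 0.0153). The groups did not overlap in Srm or Mtap, but both lost their calls without treated progenitor replicate 1 (0.0523 and 0.0699) or HFSC replicate 1 (0.0503 and 0.0627), Mtap also without HFSC replicate 2 (0.0750).

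No gene of the cell cycle lists passed in the fit used throughout, which had no block. All 45 mitosis genes were lower in treated progenitors, with a median of −0.53, but none was called in that edgeR fit. Of them 9 had an unadjusted p under 0.05. DESeq2 called 7, and edgeR with no count minimum and no block called 3. Mki67, a protein of cycling cells, had 465 and 311 against 753 and 432 CPM (−0.61, SE 0.294, adjusted p = 0.233). The topoisomerase Top2a had 228 and 143 against 462 and 258 CPM (−0.95, SE 0.341, adjusted p = 0.121). In both genes the library of mouse 1 was the higher of each group, and the groups overlapped in Mki67 but not in Top2a. With the mouse as a block 38 of the 45 were called within the 4 libraries compared (Mki67 with an adjusted p of 0.00187 and Top2a with 6.17e-05), none over all 8 libraries and 40 over all 8 with the treated HFSC numbers exchanged. In 45 DNA replication genes 20 were higher and 25 lower, with a median of −0.06 and no call (3 with an unadjusted p under 0.05, none by DESeq2). The same 3 block fits called 3, 0 and 7 of the DNA replication genes. The polymerase clamp Pcna had 239 and 204 against 246 and 219 CPM. Ribonucleotide reductase Rrm2 had 304 and 168 against 219 and 182 CPM.

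How the mouse block moved the calls differed between lists. Within the 4 libraries compared, it called 36 cornified envelope genes in place of 34, 13 proteases and inhibitors in place of 12, 22 barrier enzymes in place of 16, 8 desmosome genes in place of 6 and 25 genes of cholesterol and fatty acid synthesis in place of 23. It called 9 of the 10 HFSC identity markers in place of 5, 5 lineage markers in place of 2, 13 surface and matrix genes of HFSCs in place of 8 and 10 transcription factors of differentiation in place of 4. In the signalling lists the calls became 15 for Wnt, 10 for BMP and TGFβ, 3 for Notch, 2 for the EGF receptor family, 6 for S100 genes, 8 for early response genes and 7 for the retinoid and vitamin D axis. They became 12 for cytokines and alarmins, 12 for ER chaperones, 12 for NRF2 targets, 5 for heat shock genes, 33 for ribosome biogenesis, 4 for polyamine genes and 5 for tight junction genes. These counts are to be read against the 2228 genes that this fit called in all. Over all 8 libraries with the block, the transcription factors of the bulge and hair germ had 8 calls in place of 12, BMP and TGFβ genes 2 in place of 3 and early response genes 1 in place of 2. Cornified envelope genes had 29 in place of 34, ribosome biogenesis 18 in place of 23 and proteases and inhibitors 10 in place of 12. Surface and matrix genes of HFSCs had 6 in place of 8 and cholesterol and fatty acid synthesis 21 in place of 23. Barrier enzymes had 17 in place of 16 and lineage markers 3 in place of 2, while HFSC identity markers kept 5 and desmosome genes 6. This fit called 866 genes in all.

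The untreated progenitors shared the HFSC libraries with the comparison above, so their values are set beside it without a test of overlap. Between untreated progenitors and HFSCs 20 of 12242 genes were called (0.163%), and between treated and untreated progenitors 20 (0.163%), of which 18 were higher with N1-AcSpd. An unadjusted p under 0.05 was reached by 1274 and 1180 genes. DESeq2 called 273 and 185 genes, and edgeR with a mouse block over all 8 libraries 3 and 1. Ivl had 21.3 and 21.6 CPM in untreated progenitors, between the 15.6 and 15.03 CPM of HFSCs and the 56.4 and 56.1 CPM of treated progenitors, and its difference with treatment was 1.39 (SE 0.0966, adjusted p = 0.00549). Krt15 had 169 and 189.9 CPM, a difference of −2.01 from HFSCs (adjusted p = 0.00138), and fell by a further 0.84 with treatment (SE 0.115, adjusted p = 0.0470). Cd34 had 2.35 and 3.57 CPM and did not pass between the progenitor groups (0.39, SE 0.388, adjusted p = 0.857). Susd2, with 35.8 and 36.6 CPM, fell by 1.38 with treatment (SE 0.158, adjusted p = 0.0364).
The cornified envelope genes stood at a median of 1.14 in untreated and 3.08 in treated progenitors, with 1 and 34 of 40 called, and the difference between the progenitor groups had a median of 1.91 with 6 called. The suprabasal keratins stood at 1.58 and 3.31, and the proteases at 1.28 and 2.09, with 3 calls of the difference. Sprr1b rose with treatment by 1.61 (SE 0.157), Alox12b by 2.18 (SE 0.237) and Lce3c by 3.33 (SE 0.352), each with an adjusted p of 0.0364, Klk7 by 2.20 (SE 0.290, adjusted p = 0.0441) and Cdsn by 2.28 (SE 0.297, adjusted p = 0.0441). The HFSC identity markers stood at −1.28 in untreated and −1.23 in treated progenitors, the HFSC transcription factors at −0.61 and −0.71, and cholesterol and fatty acid synthesis at 0.24 and 0.74. Hmox1 had 48.8 and 43.0 CPM in untreated progenitors and rose by 0.83 with treatment (SE 0.102, adjusted p = 0.0409). Col7a1 had 268 and 245 CPM in untreated progenitors, beside 262 and 244 CPM in HFSCs (0.02, adjusted p = 0.979), and differed by −0.74 with treatment (SE 0.105, adjusted p = 0.0508).

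Footprints gave a second readout from the same lysates at far lower depth. On the transcripts kept, treated progenitors had 82191 and 63861 footprints and HFSCs 52373 and 133279. The RNA-seq libraries had 21601141 to 31505435 counts each on these transcripts. The footprint fit took in 8430 genes, at a mean of 1 footprint or more over 8 libraries, and called 22 of them (0.261%), 15 higher and 7 lower in treated progenitors. DESeq2 called 4, and 422 genes had an unadjusted p under 0.05. Krt15 had 24 and 13 footprints against 116 and 284 (−3.05, adjusted p = 1.01e-08). Among those that were higher, Cdsn had 28 and 23 against 1 and 2 footprints (4.36, adjusted p = 3.01e-04), Calm4 62 and 35 against 6 and 11 (2.82, adjusted p = 3.01e-04) and Krt1 28 and 15 against 3 and 4 (2.89, adjusted p = 0.0321). Relative to library size the groups did not overlap in Krt15, Cdsn, Calm4 or Krt1. Cnfn, Krt16, Gsta4 and Tslp rose in footprints and in RNA, and Postn fell in both. Tgm1 had 14 and 6 footprints against none, which makes it at least 3.31-fold higher at a floor of 3 footprints per library. S100a8, a subunit of the alarmin calprotectin, had 96 and 33 against 10 and 17 footprints (2.52, adjusted p = 3.01e-04) and did not pass in RNA without a block (1.60, adjusted p = 0.122). Ly6d, a surface protein of differentiating epithelium, had 212 and 114 against 27 and 62 footprints (2.21, adjusted p = 6.50e-05, and 0.0702 in RNA). In RNA without a block edgeR called Ly6d with no count minimum (adjusted p = 0.0186) and with only the 4 libraries compared (0.0274). Noc4l, of ribosome biogenesis, had 25 and 12 against 0 and 4 footprints (adjusted p = 0.0109, and 0.117 in RNA). The mitochondrial cytochrome b gene mt-Cytb was lower in footprints, with 7 and 1 against 12 and 60 (−2.67, adjusted p = 0.00540), and stood at 0.63 in RNA (adjusted p = 0.191). In RNA the mouse block within the 4 libraries called S100a8 (adjusted p = 2.53e-05), Ly6d (7.44e-07) and mt-Cytb (1.55e-04, higher), but not Noc4l. The block over all 8 libraries called none of the 4 genes, and all 4 with the treated HFSC numbers exchanged.
The other 8 genes called lie outside the lists and are named after their values were seen. The fatty acid carrier Fabp5 (142 and 114 against 9 and 48 footprints), the protease Asprv1, 2310046K23Rik and osteopontin (Spp1) were higher. Of these, the unnamed gene 2310046K23Rik lies in the stretch of the epidermal differentiation complex described above. Apolipoprotein E (Apoe), Pip, Serpina3n and transthyretin (Ttr) were lower, the last 2 with no footprint in treated progenitors, at least 5.99-fold and 3.11-fold lower at that floor. In HFSCs Serpina3n had 3 and 59 and Ttr 3 and 27 footprints, so both bounds rest mainly on HFSC replicate 2. Spp1 rested on 1 and 31 footprints in treated progenitors, so that its groups overlapped relative to library size. Calls numbered 6 without treated progenitor replicate 1, 13 without its replicate 2 and 2 without HFSC replicate 2. Among the 222 genes called in RNA that had a mean of at least 10 footprints, 123 of the 144 that rose had a higher footprint level in treated progenitors, with a median log2 difference of 0.62. Of the 78 that fell 73 had a lower one, with a median of −0.94. Of all 2259 genes at that depth 1255 were higher, with a median of 0.08. RNA and footprints came from the same lysates, so the readouts share the cells.

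**Figure D5:**
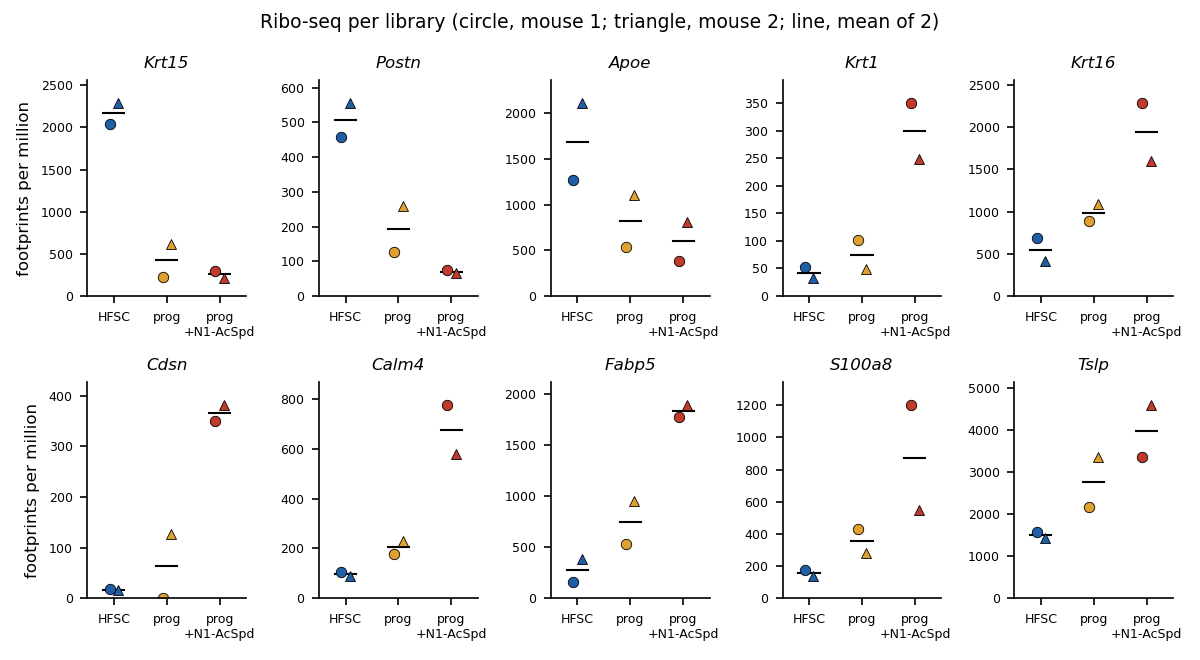
Ribo-seq levels in CPM of footprints (vertical axes from 0) of 10 genes in untreated HFSCs, untreated progenitors (prog) and progenitors treated with N1-AcSpd, with a circle for mouse 1, a triangle for mouse 2 and a line for their mean. Krt15, Postn and Apoe are lower and the other 7 genes higher in both treated progenitor libraries than in both HFSC libraries.

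Markers of other cell types were examined for the same 4 libraries. Of 8 fibroblast markers 5 were tested and none was called (none at an unadjusted p under 0.05, none by DESeq2), with a summed level of 2.26 and 21.7 CPM in treated progenitors against 1.99 and 5.50 CPM in HFSCs. The mouse block within the 4 libraries called 2 of the fibroblast markers, Col6a3 among them (adjusted p = 9.52e-04). The collagen genes Col6a3 and Col1a2 had 8.23 and 6.10 CPM in treated progenitor replicate 2 and at most 1.82 CPM in the other 3 libraries, and without that replicate their log2 fold changes turned from 2.33 to −0.13 and from 1.27 to −1.87. Lumican (Lum) was at 0 in all 4 libraries, and the part of these cells in the comparison was not tested. Of 8 melanocyte markers 2 were tested, and Mitf fell (6.57 and 5.71 against 10.8 and 12.6 CPM, adjusted p = 0.0178), whereas Dct, Tyrp1, Tyr and Mlana were under a mean of 10 counts and Sox10 was at 0. Mitf lost its call without either treated progenitor library (0.0612 and 0.0934) and without HFSC replicate 2 (0.108). Immune markers summed to 0.272 to 3.15 CPM, endothelial markers to 0.629 to 2.43 CPM, sebocyte markers to 0.964 to 3.19 CPM and Merkel cell markers to 0.949 to 3.19 CPM over the 4 libraries. Langerin (Cd207), Tyrobp, Cd52, Cdh5, Emcn, Mc5r and Atoh1 were at 0. The lipid droplet gene Cidea was the 1 call among these 4 lists without a block (0.906 and 1.11 against 0.0311 and 0.152 CPM, adjusted p = 0.0234), which was lost without treated progenitor replicate 1 (0.0756) or either HFSC library (0.0930 and 0.0576). Hair shaft and inner root sheath markers summed to 19.2 to 31.6 CPM with no call among 3 tested (1 at an unadjusted p under 0.05, none by DESeq2), but Hoxc13 was called within the 4 libraries with the mouse as a block (−0.74, adjusted p = 0.0258) and 2 of the 3 without treated progenitor replicate 1, and Krt31 was at 0. Of 4 markers of the interfollicular epidermis and the infundibulum 2 rose and 1 fell, and their summed level was 1122 and 907.9 against 724 and 642.1 CPM. Plet1 had 53.7 and 43.5 against 15.1 and 13.9 CPM (1.75, SE 0.183, adjusted p = 0.00211). Ly6a had 485 and 458 against 305 and 292 CPM (0.66, adjusted p = 0.0365), and Sostdc1 146 and 143 against 259.6 and 243 CPM (−0.80, adjusted p = 0.0137). Without any 1 of the 4 libraries Ly6a (0.0947 to 0.174) and Sostdc1 (0.0550 to 0.0648) were outside the threshold. Their part in the differences of epidermal genes was not tested. The 13 mitochondrially encoded genes held 5.70% and 8.20% of the counts in treated progenitors and 4.65% and 6.43% in HFSCs. All 13 were higher and none was called (2 at an unadjusted p under 0.05, 2 by DESeq2, 1 by edgeR with no count minimum). With the mouse as a block 7 were called within the 4 libraries, 1 over all 8 and 8 over all 8 with the treated HFSC numbers exchanged.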

How the data were processed

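RNA-seq (8 libraries) and Ribo-seq (8 libraries) of 4 groups with 2 replicates each were used. After adapter trimming the authors used Bowtie 1.2.3 to discard fragments of rRNA and tRNA and STAR 2.7.3a to align what was left to GRCm38.p5. They deposited raw read counts per transcript, with featureCounts named in the processing notes. How reads matching several transcripts were counted is not given in the sources used here. The authors' own comparison columns were not used. Each of 22579 genes was represented by its transcript with the highest summed Ribo-seq count.

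Genes whose mean reached 10 RNA-seq counts, or 1 footprint in Ribo-seq, were fitted with edgeR 4.0.16 (TMM factors, quasi-likelihood test, Benjamini-Hochberg adjustment, R 4.3.3) on all 8 libraries of an assay with group as the only term. CPM use TMM-scaled library sizes. Alternatives were DESeq2 1.42.0, other factors, count minimums, blocks, sums over transcripts and single libraries left out. The labels give each library's donor mouse, the same one for all libraries of a replicate number. Across genes the deviations of same-numbered libraries from their group means correlated at r = 0.352 between treated progenitors and HFSCs, 0.460 and 0.591 for untreated progenitors with these, and −0.572 to −0.396 for treated HFSCs with the other groups, so a block with the numbers of treated HFSCs exchanged was also fitted. Replicates of a group differed by more than sampling noise (chi-square per degree of freedom from 19.7 to 37.7).

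Named were Krt15, Cd34, Ivl and Itga6, the 12 genes with the smallest p-values per direction, up to 6 called members per gene list, the most abundant members where fewer than 2 passed, and members called in Ribo-seq. Other members that complete a count were named after their values were seen. Some members that are counted in their lists are not reported here by name. Members and lists were chosen with earlier results of these data known. Motif shares are shares of windows outside chromosome 18, and windows of 1 gene can overlap.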

Additional observations from a re-analysis of the deposited data

How the results depend on the processing

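The count of 1107 genes that differed in RNA was 1513 with DESeq2, 1096 with RLE factors, 1361 with no count minimum, 1055 at a minimum mean of 1 count and 939 with counts summed over transcripts. It became 668 with only the 4 libraries compared. With the replicate block it was 866 over all 8 libraries, 2228 within the 4 libraries and 2900 with the treated HFSC numbers exchanged, and from 281 to 596 with 1 library left out. The block over all 8 libraries kept 830 of the 1107 and reversed none, which their lack of overlap between groups largely fixed in advance. The 188 calls among list members became 161, 335 and 371 in these 3 block fits and 83 to 132 with 1 library left out. The 22 footprint calls became 4 with DESeq2 and 2 to 20 with 1 library left out. With the block the 20 calls of untreated progenitors against HFSCs became 3 and the 20 of treated against untreated progenitors 1, while DESeq2 gave 273 and 185. The causes were not tested, but a library left out leaves 1 sample in its group, assumed to vary like the other groups.
Of the called genes named none changed direction, which their lack of overlap between groups also largely fixed in advance. Among those not called, leaving out 1 library turned Hsp90ab1 (range −0.0070 to 0.15), Pcna (−0.18 to 0.032, also 0.02 without HFSC replicate 1), Rrm2 (−0.25 to 0.59), mt-Co1 (−0.079 to 0.53), Col6a3 (−0.13 to 5.53), Col1a2 (−1.87 to 2.20), Tek (−1.71 to 0.10), Awat2 (−0.66 to 0.88) and Msx2 (−0.058 to 0.29). Of 119 called genes named, 67 kept their calls in all 13 settings. List medians kept their sign in all 13 except Notch and fibroblast markers and the retinoid list (12 each), DNA replication (11) and early response genes (8). Ribo-seq depth limits the footprint comparison, and 2 mice per group limit both assays.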
